A study of Mus musculus with 6 samples.

Results

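The genes described here encode the replication-dependent core histones and the linker histones of the mouse. They were taken as every gene whose current symbol begins with H1f, H2ac, H2bc, H3c or H4c followed by a digit and that had a probe set annotated to that symbol alone. There were 29 such genes among 22180 measured genes, namely 8 linker histone (H1), 6 H2A, 8 H2B and 7 H4 genes. No H3 gene of this group had a probe set of its own. Of the 70 genes with such symbols in the RefSeq gene table, 37 were represented only on probe sets that carry several symbols, and 4 (H1f0, H1f11-ps, H2ac14 and H2ac5-ps) were on no annotated probe set. Transcripts were profiled in the lungs of 6 CD1 mice, 10 weeks old, on 1 array per mouse. CD1 is an outbred strain, so the mice are not genetically identical. The intact group (3 mice) had a sham procedure. The preconditioned group (3 mice) underwent 90 minutes of mechanical ventilation at low pressure and was sampled 1 week later. No other genotype or agent is named for either group.

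Core histones H2A, H2B, H3 and H4 form the octamer around which DNA is wound, and linker histones H1 bind the DNA that enters and leaves it. Most of these genes lie in clusters, are expressed mainly in S phase when DNA is copied, and give mRNAs that end in a stem-loop in place of a poly(A) tail. NPAT switches on their transcription, and the stem-loop binding protein SLBP carries their mRNA through processing, translation and decay. In a mostly resting tissue such as adult lung, stem-loop histone mRNA is low, while some histone genes also give polyadenylated mRNA in cells that do not divide.

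The lung label was checked first. The surfactant gene Sftpc lay between 12.95 and 13.40 and the endothelial gene Cdh5 between 11.21 and 11.97 on the log2 scale over the 6 arrays. Array medians lay between 5.32 and 5.40, and the correlation of arrays across genes between 0.978 and 0.993. Intact replicate 1 stood apart from the other intact arrays on the first principal component (46.6% of the variance), at -0.51 against -26.5 and -28.4, with the preconditioned arrays at 12.3 to 25.8. For this reason the main counts are also given without it. The labels call the arrays biological replicates. The p-values measure the spread between these mice, and their number, 3 a group, limits the precision.

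The promoters of 4 H2A, H2B and H4 genes are shown because these genes had the largest differences among the core histones in the direction of lower values (H2ac20 with H2bc21, H4c9 and H4c8), beside H4c12, the H4 gene with the highest level. The sequences are from RefSeq, build GRCm38.p6, written 5′ to 3′ on the strand of the gene. H2ac20 and H2bc21 start next to each other and are read in opposite directions, so the whole stretch of 191 bases between their starts is printed on the strand of H2ac20. For the others it is the 250 bases before the start. Capitals mark CCAAT (bound by NF-Y), TATAAA (the letters of a TATA box) and GGTCCG (part of the element known upstream of H4 genes). They are marked on either strand and at any distance from the start.
H2ac20 and H2bc21, chr3:96220881-96221071, minus strand: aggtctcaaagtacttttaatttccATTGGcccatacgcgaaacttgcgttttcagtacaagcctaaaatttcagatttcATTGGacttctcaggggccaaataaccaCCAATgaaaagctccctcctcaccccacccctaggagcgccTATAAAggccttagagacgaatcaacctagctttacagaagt
H4c9, chr13:22041363-22041612, minus strand: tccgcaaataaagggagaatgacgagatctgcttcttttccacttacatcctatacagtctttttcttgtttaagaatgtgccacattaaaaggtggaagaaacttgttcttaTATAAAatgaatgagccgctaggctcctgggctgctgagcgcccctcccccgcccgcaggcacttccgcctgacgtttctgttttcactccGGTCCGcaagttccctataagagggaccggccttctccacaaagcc
H4c8, chr13:23530794-23531043, plus strand: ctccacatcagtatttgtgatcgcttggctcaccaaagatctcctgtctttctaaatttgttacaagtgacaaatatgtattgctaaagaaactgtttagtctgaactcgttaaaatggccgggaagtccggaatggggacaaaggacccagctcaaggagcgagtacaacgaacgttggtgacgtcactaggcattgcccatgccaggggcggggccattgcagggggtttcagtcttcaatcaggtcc
H4c12, chr13:21750554-21750803, minus strand: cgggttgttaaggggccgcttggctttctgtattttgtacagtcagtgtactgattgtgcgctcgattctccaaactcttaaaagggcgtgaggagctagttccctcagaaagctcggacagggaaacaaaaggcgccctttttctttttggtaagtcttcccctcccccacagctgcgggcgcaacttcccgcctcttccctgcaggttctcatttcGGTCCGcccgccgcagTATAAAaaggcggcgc
The stretch between H2ac20 and H2bc21 held CCAAT 3 times and TATAAA once. H4c9 and H4c12 each held TATAAA and GGTCCG once, and H4c8 held none of these in full within its 250 bases. The H4c8 stretch ends in ggtcc, which is GGTCCG without its last letter, and bases past the start were not searched. A promoter was found for 27 of the 29 genes, all but H2bc21 and H4c14. In the 250 bases before the start, CCAAT was present in 6 of 6 H2A, 7 of 7 H2B, 6 of 8 H1 and 1 of 6 H4 promoters, against 33.8% of 32851 promoters of the same length. TATAAA was present in 13 of 27 (48.1%, against 12.4%). The octamer ATTTGCAT, bound by Oct-1, was present in 3 of 6 H2A, 5 of 7 H2B and no H1 or H4 promoter (1.6% of all promoters). The H2A count includes H2ac20, where the octamer reached past the start of H2bc21, since the 191 bases printed hold none. GGTCCG was present in 3 of 6 H4, 1 of 8 H1, 1 of 7 H2B and no H2A promoters, against 6.72%, and TTTCCCGC or TTTGGCGC, forms of the E2F site, in 1 of 27, against 1.3%. Adjacent H2A and H2B genes that are read apart, such as H2ac12 with H2bc12 and H2ac1 with H2bc1, share part of their windows.

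Preconditioned lungs were set against intact ones to ask what the earlier ventilation left in the transcripts. Among histone genes, the H4 genes and the genes of the smaller Hist2 cluster had mostly lower values in preconditioned lungs, and the linker histone genes had mostly slightly higher ones. The genes with the lowest p in limma were H2ac20 at -0.69, H4c9 at -0.78 and H2bc21 at -0.39 (log2, preconditioned minus intact). H4c9 (mean 4.63) lay below the 95th percentile of olfactory receptor genes described below (5.07), and H2bc21 (mean 5.17) only just above it. Above it lay 2 of the 7 H4 genes, 2 of the 8 linker histone genes and 4 of the 5 Hist2 genes. The H4 and linker histone genes with the most signal, H4c12 and H1f2, were at -0.04 and -0.09 with overlapping groups. In limma, 0 of the 29 histone genes had an adjusted p under 0.05, against 21 of all 22180 genes (0.0947%). At an unadjusted p under 0.05 there were 9, of which 6 had lower and 3 higher values, against 19.1% of all genes, 11.6% lower and 7.53% higher. After the values were quantile-normalized again, or normalized by cyclic loess, the split was 7 lower and 1 higher. The groups did not overlap for 10 genes, 6 lower and 4 higher, against 24.7% of all genes, 13.0% lower and 11.7% higher (7 lower and 2 higher after quantile normalization again). Over the 29 genes the median log2 difference was 0.03, and over all genes it was 0.01. Without intact replicate 1, 4 of the 29 (H2ac20, H2bc14, H2bc21 and H4c9) passed an adjusted p of 0.05, where 1228 of all genes (5.54%) did.

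**Figure D1:**
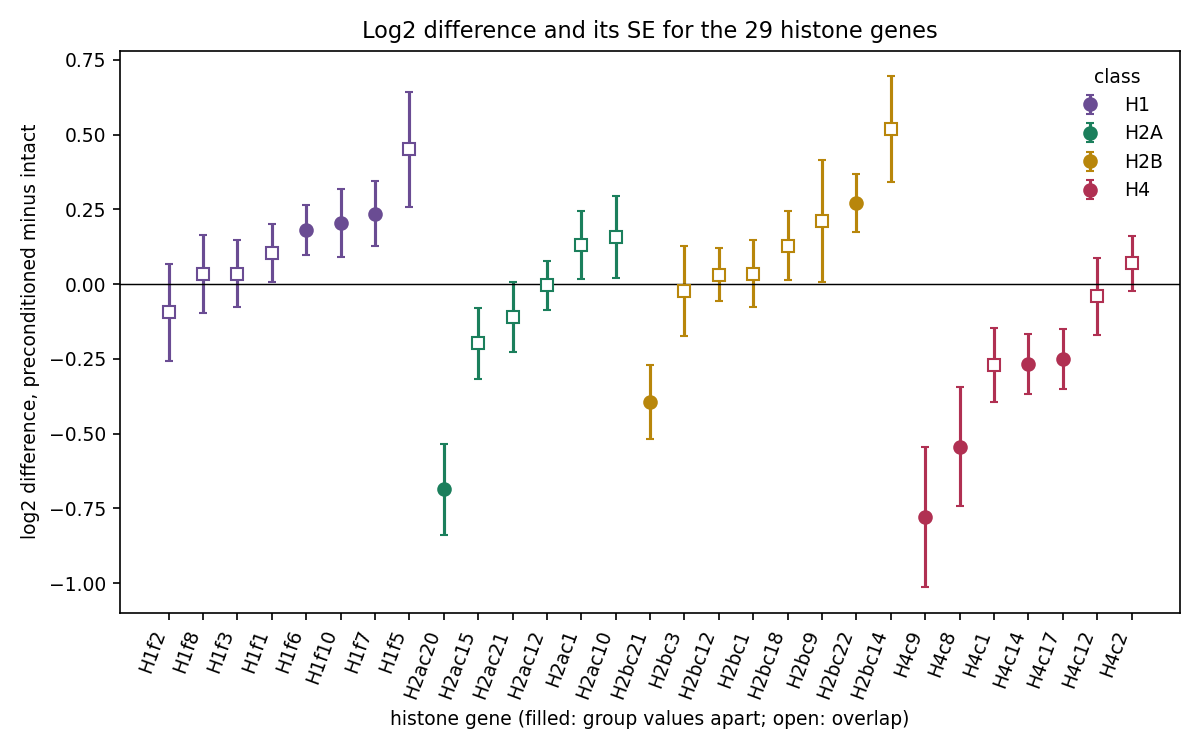
Log2 difference (preconditioned minus intact, 3 mice a group) of the 29 histone genes, ordered by size within H1, H2A, H2B and H4. Bars are the SE from limma, filled points mark genes whose group values do not overlap, and open points mark the rest. In H4, 6 of 7 points lie below 0, and in H1, 7 of 8 lie above it.

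The array values of these genes in lung were low. A value also depends on the probes of its set, so the order of genes by value is only a description. Their median over the 6 arrays was 4.07, against 5.95 for all genes, and 5 of the 29 lay above that median. Olfactory receptor genes, which are not expected in lung, served to show the low end of the scale. The 95th percentile of 1105 of them was 5.07, and 10 of the 29 histone genes lay above it. Values below it cannot be told from those of genes taken as silent. A difference by level ran through the whole table. Genes at or below that percentile had a median log2 difference of 0.07, and 72.1% of them were above 0. Those above it had a median of -0.05, and 42.0% were above 0. Of the 19 histone genes at or below it, 12 were above 0, and of the 10 above it, 4 were. Its part in the direction of the low genes was not tested. In whole lung, fewer cells of a type and less RNA per cell cannot be told apart.

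**Figure D2:**
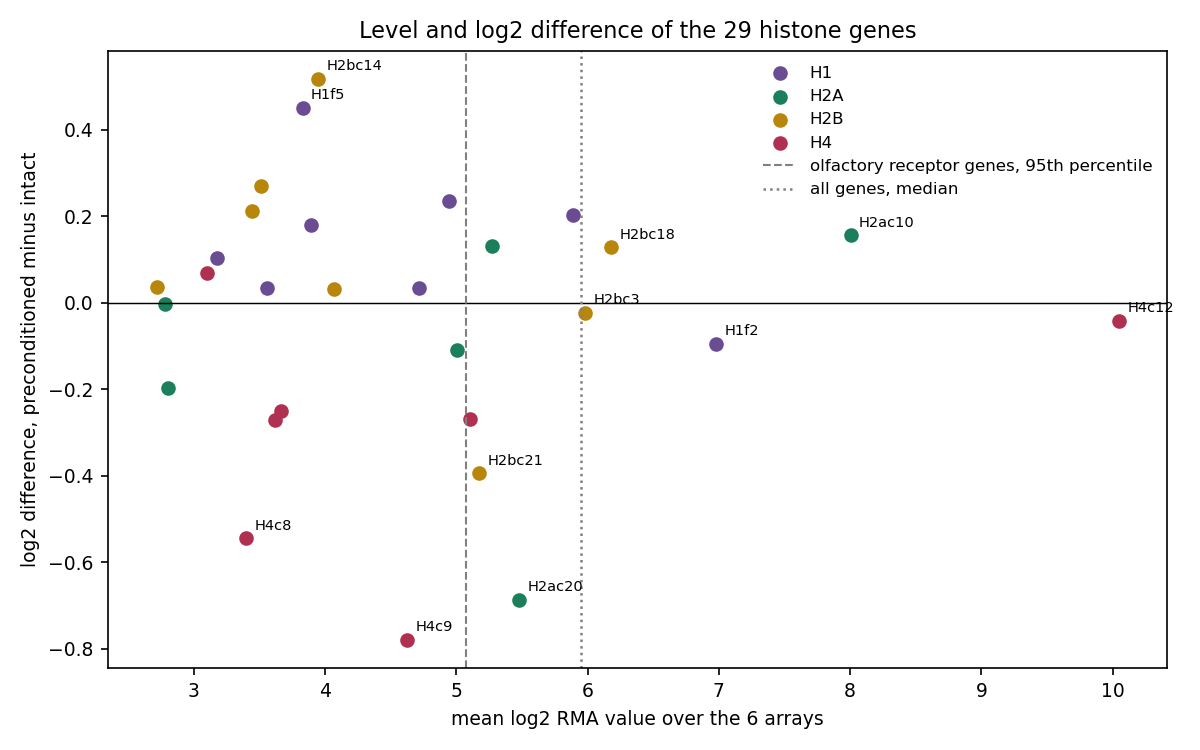
Mean log2 RMA value over the 6 arrays (x axis) against the log2 difference, preconditioned minus intact (y axis), for each of the 29 histone genes, coloured by class. The dashed line is the 95th percentile of olfactory receptor genes (5.07) and the dotted line the median of all genes (5.95). The 5 genes right of the dotted line lie between -0.09 and 0.16.

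H2ac20, a replication-dependent H2A gene of the Hist2 cluster, had the lowest p of the group. Its log2 values were 5.58, 5.80 and 6.09 in intact and 5.28, 4.92 and 5.21 in preconditioned mice. The groups did not overlap, and intact replicate 1 was the intact mouse nearest to the preconditioned ones. The group means were 5.82 ± 0.26 and 5.14 ± 0.19 (SD, n = 3). In limma this came to -0.69 on the log2 scale, or 1.61-fold lower, with an SE of 0.15 and an adjusted p of 0.0949. H2bc21, which encodes an H2B and shares with H2ac20 the stretch printed first, had values of 5.14, 5.41 and 5.56 in intact and 4.97, 4.89 and 5.07 in preconditioned mice. Again every preconditioned value lay below every intact one, by a small gap at intact replicate 1. The difference was -0.39 (SE 0.12, adjusted p = 0.152). H2bc21 is among the H2B genes known to give polyadenylated mRNA in cells that have left the cell cycle.

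The other genes of the Hist2 cluster were H4c14, H2ac21 and H2bc18. H4c14 had values of 5.18, 5.29 and 5.24 in intact and 5.13, 4.92 and 4.86 in preconditioned mice, which did not overlap, with a difference of -0.27 (SE 0.10, adjusted p = 0.210). H2ac21 was at -0.11, and H2bc18 at 0.13, both with overlapping groups. Of the 5 Hist2 genes, 4 were below 0, with a median of -0.27. This count was the same in each of the normalizations and with each array left out in turn, and the median lay between -0.35 and -0.21. For the 21 genes of the larger Hist1 cluster the median was 0.03, with 9 below 0. The difference between the clusters was not tested.

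H4 is the most conserved histone, and its genes encode the same protein. Of the 7 H4 genes, 6 were below 0 (median -0.27), 4 at an unadjusted p under 0.05 (11.6% of all genes were lower at that p), and none passed the adjusted threshold. H4c9 had values of 4.57, 5.33 and 5.16 in intact and 4.51, 4.38 and 3.82 in preconditioned mice. Intact replicate 1 exceeded the highest preconditioned mouse only slightly, so that the gap between the groups rests on the other intact mice. Its mean went from 5.02 ± 0.40 to 4.24 ± 0.37, a difference of -0.78 (SE 0.23, 1.72-fold lower, adjusted p = 0.143).

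H4c8 had 3.31, 3.53 and 4.17 in intact and 3.13, 3.08 and 3.18 in preconditioned mice (-0.54, SE 0.20, adjusted p = 0.199). The preconditioned mice were close together at the low end of the scale, and intact replicate 3 was the highest. Without it the difference was -0.29. H4c17 had 3.74, 3.90 and 3.73 in intact and 3.47, 3.49 and 3.67 in preconditioned mice (-0.25, SE 0.10, adjusted p = 0.227). H4c1 was at -0.27 with overlapping groups (adjusted p = 0.280), and at -0.17 without intact replicate 1. H4c9, H4c8, H4c17 and H4c1 all lay below the 95th percentile of olfactory receptor genes, where most genes of the table were above 0.

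H4c12 was the histone gene with the highest level. It had values of 10.25, 10.10 and 9.86 in intact and 9.94, 10.20 and 9.94 in preconditioned mice. The groups overlapped fully, with a difference of -0.04 and a 95% confidence interval from -0.34 to 0.25. Its sign turned after quantile normalization again (0.15) and cyclic loess (0.14). H4c2 was at 0.07 at a level of 3.10. Over the 3 other normalizations (quantile again, median centring, cyclic loess), 5 or 6 of the 7 H4 genes were below 0.

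**Figure D3:**
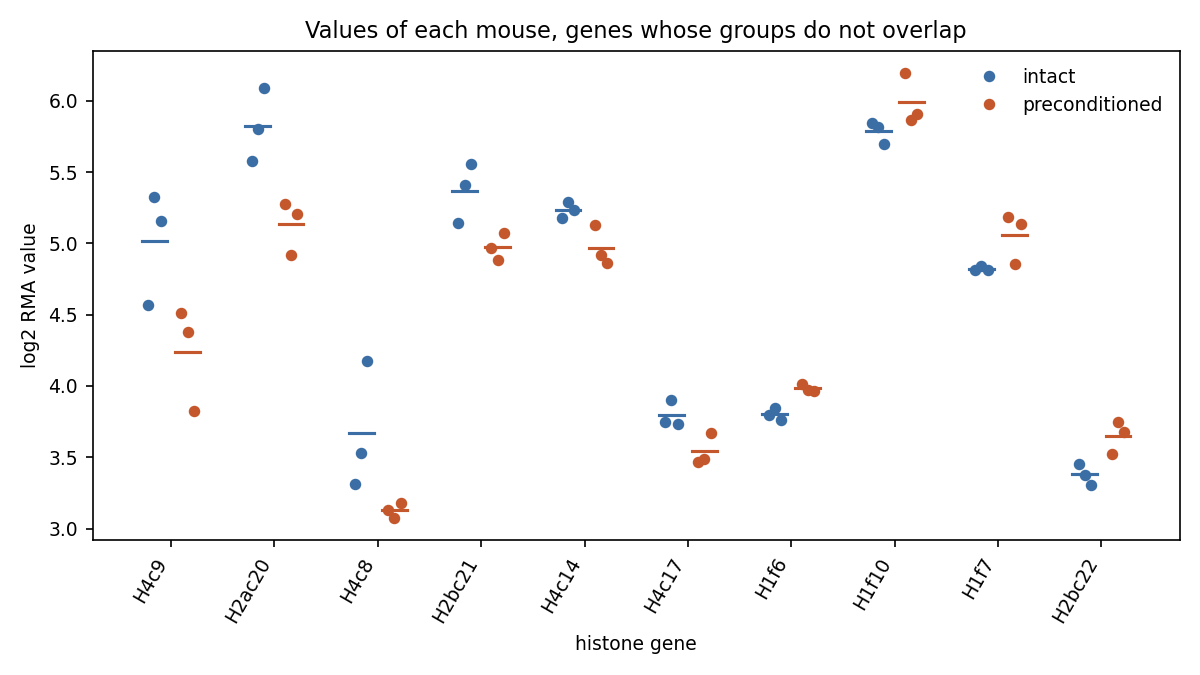
Log2 RMA value of each mouse for the 10 histone genes whose groups do not overlap, ordered from the lowest to the highest log2 difference. Points are mice (3 a group, blue intact and orange preconditioned), and lines are group means. The 6 genes with lower preconditioned values stand left, from H4c9 (5.02 to 4.24), and the 4 with higher ones right, to H2bc22 (3.38 to 3.65).

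Apart from H2ac20 and H2ac21, the H2A genes were H2ac10, H2ac1, H2ac15 and H2ac12. H2ac10, the highest of them, had values of 8.16, 7.96 and 7.65 in intact and 8.02, 8.19 and 8.03 in preconditioned mice. The groups overlapped, and the difference was 0.16 (95% confidence interval from -0.16 to 0.47). H2ac1, which encodes the testis form of H2A, was at 0.13, H2ac15 at -0.20 and H2ac12 at 0.00. H2ac15 and H2ac12 had means of 2.80 and 2.78, at the bottom of the scale.

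The H2B genes went both ways. H2bc14 had values of 4.11, 3.45 and 3.51 in intact and 4.25, 4.31 and 4.07 in preconditioned mice. Intact replicate 1 lay within the preconditioned range, and the difference was 0.52 (SE 0.18, adjusted p = 0.179). Without intact replicate 1 it was 0.73 (adjusted p = 0.0196, in a range of 0.0196 to 0.461 over the alternatives). H2bc22 had 3.46, 3.38 and 3.31 in intact and 3.52, 3.75 and 3.68 in preconditioned mice, which did not overlap (0.27, SE 0.10, adjusted p = 0.194). Both lay below the 95th percentile of olfactory receptor genes. The 2 H2B genes above the median of all genes, H2bc18 and H2bc3, had small differences. H2bc18 had 6.07, 6.05 and 6.23 in intact and 6.17, 6.45 and 6.11 in preconditioned mice, and H2bc3 had 6.17, 6.04 and 5.77 against 6.24, 5.87 and 5.80. The groups overlapped for both (0.13 and -0.02). H2bc9 was at 0.21, H2bc12 at 0.03 and H2bc1, the testis form of H2B, at 0.04. H2bc21, described above, was at -0.39 with groups apart, and bright shared H2B probe sets are given below.

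Of the 8 linker histone genes, 7 were above 0, with a median of 0.14, 1 was at an unadjusted p under 0.05 and none passed the adjusted threshold. After quantile normalization again or cyclic loess, 5 of the 8 were above 0, the median was 0.08 and none was at an unadjusted p under 0.05. Of the 8, 6 lay at or below the 95th percentile of olfactory receptor genes, where 72.1% of all genes were above 0. H1f2, one of the main linker histones of somatic cells and the H1 gene with the most signal, was the one below 0. It had values of 6.77, 7.15 and 7.15 in intact and 7.21, 6.67 and 6.91 in preconditioned mice, with overlapping groups (-0.09, 95% confidence interval from -0.47 to 0.28). H1f10, a linker histone gene outside the clusters whose mRNA is polyadenylated, had 5.84, 5.82 and 5.70 in intact and 6.20, 5.86 and 5.91 in preconditioned mice. These did not overlap, but the gap was small (0.20, SE 0.11, adjusted p = 0.362, and 0.10 without preconditioned replicate 1).

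H1f5, a linker histone gene of dividing cells, had 3.68, 3.88 and 3.25 in intact and 3.92, 4.39 and 3.86 in preconditioned mice. The groups overlapped, and the difference was 0.45 (SE 0.19, adjusted p = 0.254). It was 0.27 without intact replicate 3 and 0.28 without preconditioned replicate 2. H1f1 had 3.23, 3.07 and 3.09 in intact and 3.30, 3.28 and 3.12 in preconditioned mice (0.10). H1f3 had 3.54, 3.57 and 3.51 in intact and 3.67, 3.35 and 3.69 in preconditioned mice (0.03). Both had overlapping groups at the low end of the scale.

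The germ cell linker histones are not expected in lung. H1f6, the testis-specific H1t, had values of 3.80, 3.85 and 3.76 in intact and 4.02, 3.97 and 3.96 in preconditioned mice (0.18, groups apart, and 0.11 after cyclic loess). H1f7, the H1 of spermatids, had 4.82, 4.84 and 4.81 in intact and 5.19, 4.85 and 5.13 in preconditioned mice (0.23, groups apart, and 0.15 after cyclic loess). For H1f8, the oocyte form, the values were 4.72, 4.82 and 4.56 in intact and 4.59, 4.99 and 4.63 in preconditioned mice (0.03, overlapping, and -0.05 after quantile normalization again or cyclic loess). Together with H2ac1 and H2bc1, all 5 germ cell histone genes were above 0 as deposited, with a median of 0.13, and 4 of them lay below the 95th percentile of olfactory receptor genes.

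Most core histone genes are so alike that the array reads several with the same probes. There were 37 probe sets annotated to several histone genes and to nothing else, covering 53 symbols, and 3 pairs of them held identical values, which left 34. They were fitted in limma with all 41345 probe sets. None passed an adjusted p of 0.05, where 0.0290% of all probe sets did. At an unadjusted p under 0.05 there were 9, 7 lower and 2 higher, against 17.6% of all probe sets (9.21% lower and 8.44% higher). The groups did not overlap for 12, 9 lower and 3 higher, against 23.8%. The median of the 34 was -0.03.

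Of the 34 shared probe sets, 11 lay above the 95th percentile of olfactory receptor genes. A probe set for H2ac18, H2ac19 and H2ac20 (17400545), Hist2 genes of H2A other than H2ac21, had the highest values of them. It had values of 11.31, 11.37 and 11.65 in intact and 11.03, 11.13 and 10.98 in preconditioned mice. The groups did not overlap, with a difference of -0.40 (SE 0.12, adjusted p = 0.173), the same sign as that of H2ac20 alone. A probe set for H2bc4, H2bc6 and H2bc8 (17285851) had 9.68, 10.20 and 10.11 in intact and 8.98, 9.63 and 9.49 in preconditioned mice. These did not overlap either, by a narrow gap at intact replicate 1 (-0.63, SE 0.21, adjusted p = 0.206). A probe set for H2bc7, H2bc11, H2bc13 and H2bc15 (17290997) had 9.68, 9.87 and 9.85 against 9.58, 9.47 and 9.28 (-0.36, adjusted p = 0.191), again apart. Other bright shared probe sets had smaller differences. H2A 17291012 (mean 9.49) was at -0.05 and H2A 17285703 (mean 8.77) at -0.13, both with overlapping groups. H2B 17285691 (mean 9.11) was at -0.24 with groups apart (limma adjusted p = 0.336). After quantile normalization again these were at 0.05, -0.02 and -0.13, and the sets described before at -0.38 (17400545), -0.53 (17285851) and -0.24 (17290997, limma adjusted p = 0.346). Of the 7 shared H2B probe sets, 6 were below 0 (median -0.24, and -0.13 after quantile normalization again). Another set with the symbols of 17285851 was at -0.03 (17285834, mean 4.95). Those with the symbols of 17290997 were at -0.07 (17291190, mean 5.74) and 0.15 (17285746, mean 3.13). The groups overlapped for each of them.

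The largest difference of any histone probe set was in H4. A probe set that carries 13 H4 symbols (17291019) had values of 5.30, 5.80 and 5.84 in intact and 4.69, 4.42 and 3.59 in preconditioned mice. The groups did not overlap, and the difference was -1.42 (SE 0.30, 2.67-fold lower, adjusted p = 0.113). With each array left out in turn it lay between -1.65 and -1.09. The mean level of this probe set was 4.94, below the 95th percentile of olfactory receptor genes (5.07). Other probe sets with the same 13 symbols gave 0.42 (17291180), -0.49 (17285846, at -0.29 without intact replicate 3) and -0.03 (17291208), at mean levels of 3.37, 3.35 and 3.81. Probe sets with the same annotation therefore differed in sign, and which H4 gene each of them reads is not given by the annotation. A probe set with 6 H4 symbols (17285706, mean 5.08) was at 0.01 with overlapping groups. Of the 5 shared H4 probe sets it was the only 1 above the olfactory percentile, and only just.

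H3 was measured only on shared probe sets. Of 12, 9 were above 0, with a median of 0.05. After quantile normalization again 7 were above 0 (median 0.02), and without preconditioned replicate 3 there were 5 (median -0.01). A probe set for H3c1, H3c8, H3c10 and H3c11 (17285680) had values of 6.19, 5.82 and 6.04 in intact and 6.65, 6.61 and 6.52 in preconditioned mice. Every preconditioned value lay above every intact one (0.57, SE 0.12, adjusted p = 0.113, and 0.66 with an adjusted p of 0.0416 without intact replicate 1, in a range of 0.0416 to 0.324 over the alternatives run on it). Other probe sets with the same 4 symbols (17291008, 17285821 and 17291233) were at 0.06, 0.04 and 0.01. Their groups overlapped, at mean levels of 2.94, 2.93 and 3.07. The H3 probe set with the highest level (17400555), which carries 8 symbols, had 8.07, 8.12 and 8.04 in intact and 7.91, 8.03 and 7.78 in preconditioned mice (-0.17, adjusted p = 0.410, and -0.07 after quantile normalization again). Its groups were apart by a narrow gap. Among the shared probe sets, then, the H3 set with the lowest p was opposite in sign to the brightest H2A and H2B sets. The brightest H3 set had the same sign as those H2A and H2B sets.

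**Figure D4:**
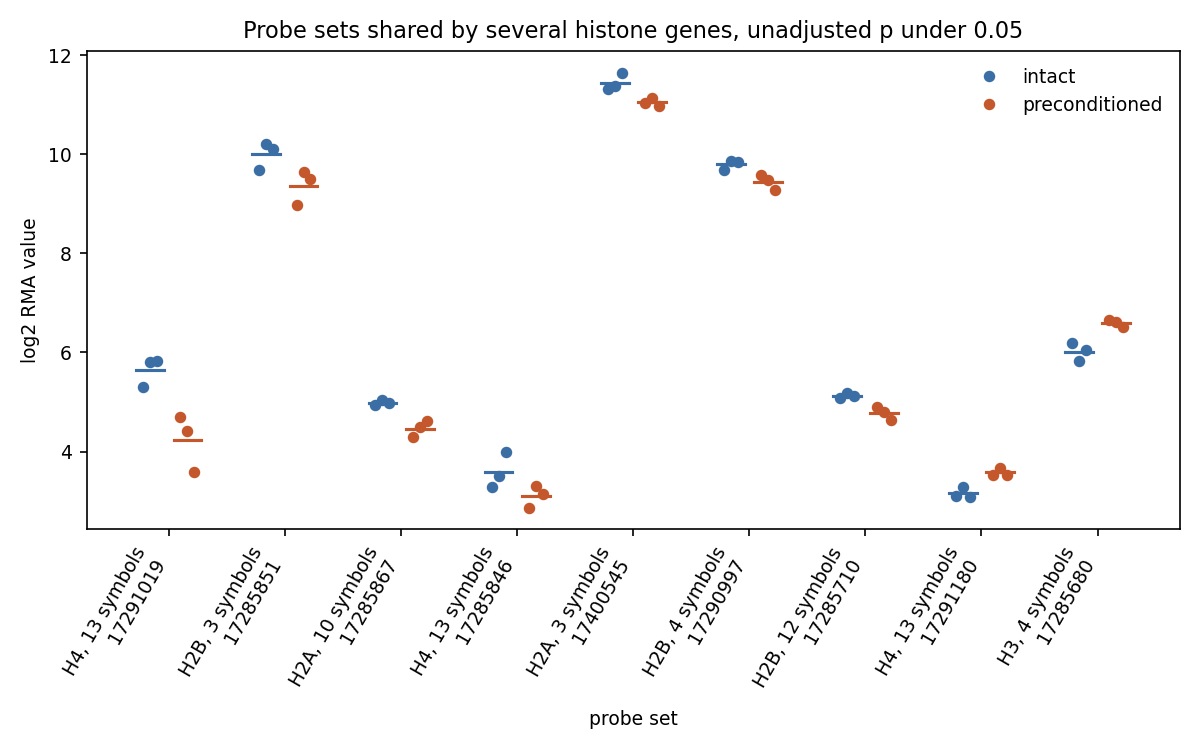
Log2 RMA value of each mouse (3 a group, blue intact and orange preconditioned) for the 9 probe sets shared by several histone genes with an unadjusted p under 0.05 in limma, ordered by log2 difference. Lines are group means, and each label gives the histone class, how many symbols the probe set carries and its identifier. The H4 probe set at the left lies at -1.42 and the H3 probe set at the right at 0.57.

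The genes that make and use histone mRNA were read from lists of other genes. Of 14 measured genes of histone gene transcription, none passed the adjusted threshold in limma. At an unadjusted p, 3 had lower values and none higher, against 11.6% and 7.53% of all genes. The median of the 14 was -0.05, and 0.05 after quantile normalization again. Npat, the coactivator of histone genes, had values of 7.12, 7.39 and 7.50 in intact and 6.59, 6.30 and 6.89 in preconditioned mice. The groups did not overlap, and the difference was -0.74 (SE 0.17, adjusted p = 0.0949). Nfya, a subunit of the CCAAT-binding factor NF-Y, was at -0.42 (adjusted p = 0.131), and E2f4, a member of the E2F family that mostly represses, at -0.47 (adjusted p = 0.149), both with groups apart. Hinfp, which activates H4 genes, was at -0.01.

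Of 16 measured genes of histone mRNA processing, none passed, and at an unadjusted p 3 were lower and 1 higher, against 11.6% and 7.53% of all genes. Slbp had values of 7.26, 7.23 and 7.42 in intact and 7.30, 7.53 and 7.56 in preconditioned mice (0.16, adjusted p = 0.446). The groups overlapped for this gene. Eri1, the nuclease that trims the stem-loop end, was at -0.51 (adjusted p = 0.0972), Cpsf3, the endonuclease that cuts histone pre-mRNA, at -0.32 (adjusted p = 0.182), and Srrt, which links capped RNA to 3′ end processing, at 0.28 (adjusted p = 0.163), each with groups apart. Of 19 measured histone chaperones, none was at an unadjusted p under 0.05 in either direction. Those with the lowest p were Anp32e, Asf1b and Hat1, at 0.26, -0.21 and -0.19.

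Of 24 measured genes of S phase and proliferation, none passed, and at an unadjusted p 3 were lower and none higher, near the 11.6% of all genes that were lower (median 0.02, and -0.04 after cyclic loess). Rrm1, a subunit of ribonucleotide reductase, was at -0.61 (adjusted p = 0.0779), Pcna, the sliding clamp of DNA polymerase, at -0.49 (adjusted p = 0.0812) and Mcm4, a subunit of the replicative helicase, at -0.41 (adjusted p = 0.0987), each with groups apart. Mki67, which marks dividing cells, had 7.19, 6.51 and 6.65 in intact and 6.53, 6.67 and 6.45 in preconditioned mice. Intact replicate 1 was the highest and the others overlapped (-0.24, adjusted p = 0.485). Of 8 measured genes in a list of other histone variants, none passed. H2ax, the H2A.X gene of the DNA damage response, had 8.02, 8.04 and 8.22 in intact and 7.74, 7.52 and 7.40 in preconditioned mice, with groups apart (-0.54, SE 0.11, adjusted p = 0.0860). H2az1, which encodes H2A.Z, was at 0.09. Hils1 and H2az2 were at 0.12 and 0.15.

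**Figure D5:**
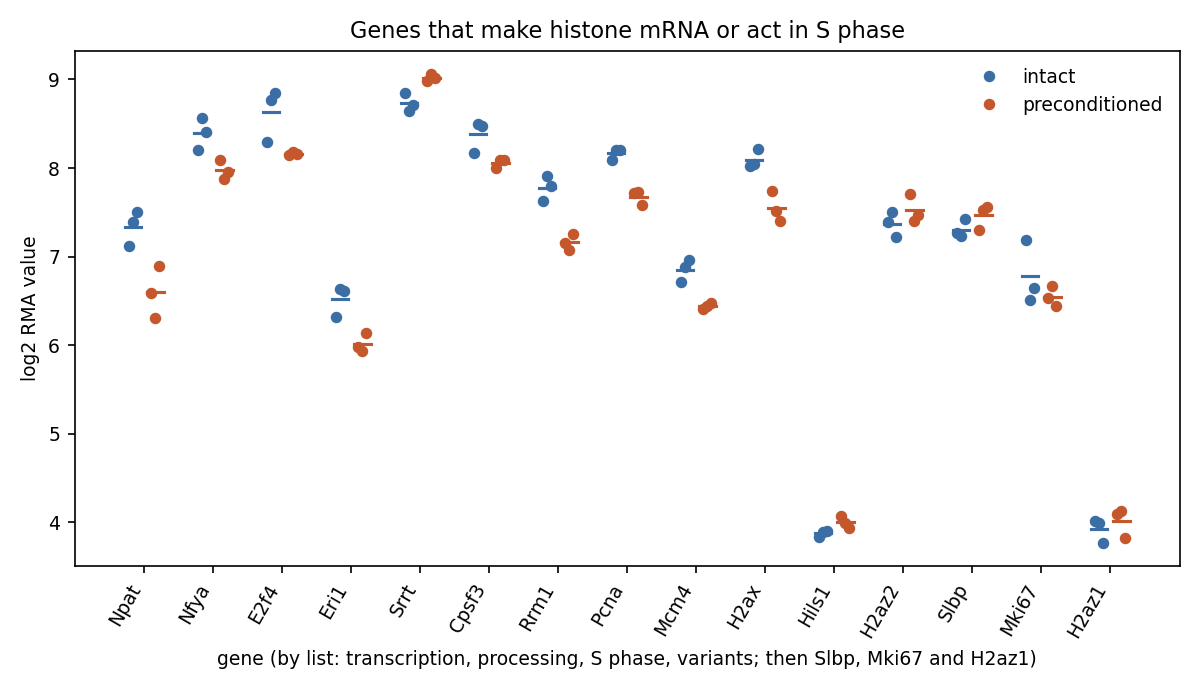
Log2 RMA value of each mouse (3 a group, blue intact and orange preconditioned) for the 3 genes with the lowest p in the lists of histone gene transcription, histone mRNA processing, S phase and histone variants, followed by Slbp, Mki67 and H2az1. Lines are group means. Npat, Rrm1, Pcna and H2ax have all preconditioned mice below all intact mice, and Slbp and Mki67 overlap.

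Markers of other cells that the sample could hold were read beside these results, and none of their genes passed the adjusted threshold. Their counts of lower and higher genes are at an unadjusted p under 0.05 in limma. At that p, 11.6% of all genes were lower and 7.53% higher. Neutrophil genes had a median of -0.59 over 12 genes (-0.30 without intact replicate 3), 6 lower and 1 higher at an unadjusted p, and their mean level was 5.38, 5.61 and 6.55 in intact and 5.17 to 5.31 in preconditioned mice. Csf3r, S100a9 and Retnlg were at -1.47, -1.18 and -1.80. Of the 12 neutrophil genes, 3 were above 0, among them Ltf at 0.86 with overlapping groups and Mpo at 0.22 with groups apart. Erythroid genes had a median of -0.57 over 5 genes, 3 lower (Slc4a1 -0.67, Bpgm -0.57 and Fech -0.73), with mean levels of 6.52 to 6.73 in intact and 6.19 to 6.48 in preconditioned mice. The other erythroid genes, Epor and Klf1, were at 0.24 and 0.11. Groups overlapped for Fech, Epor and Klf1. For thymocytes and T cells the median was -0.04 over 10 genes (-0.0020 after quantile normalization again), 3 lower (Cd3g -0.85, Cd3e -0.42 and Cd4 -0.51), with mean levels of 5.99 to 6.36 and 5.86 to 6.07, and the thymocyte genes Dntt and Rag2 lay at or below 4.11 in every mouse. Of these 10 genes, 4 were above 0. Ptcra was at 0.21 with groups apart, and Rag2 and Cd3d at 0.20 and 0.14 with overlapping groups. Groups overlapped for Cd4 as well. The B and plasma cell genes had a median of -0.03 over 9 genes (0.05 after quantile normalization again), 1 lower (Jchain -0.99, with Pax5 at 0.33 and Igll1 at 0.19), and mean levels of 6.38 to 6.63 and 6.21 to 6.48. Lung cell genes had a median of -0.27 over 12 genes (-0.07 after cyclic loess and -0.12 after repeated quantile normalization), 3 lower and 1 higher (Sftpb -0.49, Marco -0.52 and Col1a1 0.65), with mean levels of 10.54 to 10.68 and 10.42 to 10.52. Groups overlapped for Col1a1. The part of all these cells in the histone values was not tested.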

How the data were processed

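Lung RNA of 6 mice was amplified and labelled with biotin (100 ng each) and hybridised to 1-colour whole-transcript arrays. The authors deposited log2 values from RMA (background correction, quantile normalization and a summary per probe set), per the submitters' processing notes, which also name limma. Their versions, any filter and the genome build: not given in the sources used here. Of 41345 probe sets, 25335 were in the annotation table, 23521 with 1 symbol and 1814 with several. Each gene was read from its brightest probe set on average, giving 22180 genes. These were fitted in limma (lmFit and eBayes, no covariate, no filter on level), with Benjamini-Hochberg adjustment over all genes and a two-sided threshold of 0.05. RMA hides a change shared by most genes. Promoters came from RefSeq (GRCm38.p6).

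The members and gene lists were chosen with earlier results of these data known. Values in every array were given for genes past the threshold, for up to 12 genes a direction with the lowest p and groups apart, for the 5 with the highest mean and for all linker histones. Other lists show up to 3 genes with the lowest p, and Slbp, Npat, Mki67 and H2az1 (H2afz). Cell markers above 0 were added after their values were seen. List members with a symbol of the histone rule were counted there only. Shared probe sets, germ cell histones and GGTCCG were singled out after their values or sequences were seen. The fit was checked on simulated data. Software was limma 3.58.1 in R 4.3.3 and matplotlib 3.10.9 in python 3.11.15.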

Additional observations from a re-analysis of the deposited data

How the results depend on the processing

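Against the 21 of 22180 genes called, the count was 76 among genes above the median level, 33 after median centring, 55 with an intensity trend and robust prior, 1125 with array weights, 642 at an adjusted p under 0.1, and 2 to 1228 with each array left out, the highest without intact replicate 1. Of the 29 histone genes, 0 passed, 2 with array weights (H2ac20 and H4c9), 1 at an adjusted p under 0.1, and 0 to 4 with each array left out. At an unadjusted p, 6 were lower (3 to 6 with an array left out, the lowest without preconditioned replicate 2) and 3 higher (1 after quantile normalization again or cyclic loess, 0 to 3 with an array left out, 0 without intact replicate 3). Groups were apart with lower values for 6 (6 to 7 with an array left out) and with higher values for 4 (2 after quantile normalization again, 4 to 8 with an array left out). Only 5 of the genes remained above the median level, with 0 lower and 0 higher by either count and a median of -0.023. The median of 0.03 was -0.030 after cyclic loess, -0.032 over the 10 genes above the olfactory percentile, and 0.00 to 0.06 with an array left out. This olfactory threshold and the fit of all probe sets were chosen after seeing the data. Genes of the other lists that passed numbered 0, 13 with array weights, and 0 to 16 with an array left out. The replicate number as a block gave 4 genes in all and 0 histone genes. Same-numbered mice did not deviate together (correlations of -0.06, -0.31 and -0.06), so the numbers were not taken as pairs. Of genes near 0, these turned sign, none of them called. After quantile normalization again H1f3 was at -0.027, H1f8 at -0.054, H2bc12 at -0.046 and H4c12 at 0.15. With array weights H1f8 was at -0.012, H2ac12 at 0.0057, H2bc1 at -0.0068 and H2bc3 at 0.0014. After cyclic loess H1f3 was at -0.030, H1f8 at -0.054, H2bc1 at -0.0016, H2bc12 at -0.045 and H4c12 at 0.14. With each array left out in turn, H1f2 lay between -0.24 and 0.035, H1f3 lay between -0.026 and 0.14, H1f8 lay between -0.093 and 0.11, H2ac12 lay between -0.022 and 0.011, H2bc1 lay between -0.047 and 0.11, H2bc3 lay between -0.16 and 0.067, H2bc12 lay between -0.0055 and 0.074, H4c12 lay between -0.14 and 0.049. The causes were not tested. Signal near the low end of the scale limits 19 of the 29 genes.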
